A study of Mus musculus with 13 samples.

Results

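The genes described here are 44 mouse genes of S phase and DNA replication, out of 21950 genes in the bulk expression table and 28693 genes in the single-cell matrices. They were taken by name from a list of genes with these functions and are grouped here by role, from helicase loading to replication-linked repair. All 44 were found in both kinds of data. The study profiled abdominal skin epidermis of C57BL/6 mice around pregnancy. Bulk RNA-seq covered interfollicular epidermal basal cells, sorted as CD49f+ (integrin alpha 6, a protein of cells attached to the basement membrane) and CD34- (CD34 marks the hair follicle bulge). Its 3 groups of 3 libraries were wildtype non-pregnant mice (WT NP), wildtype mice at gestation day 16 (WT dpc16), and pregnant K14creERT2;Tbx3flox/flox mice at the same day (Tbx3 cKO dpc16). In the last group a tamoxifen-inducible Cre under the keratin 14 promoter, which is active in basal keratinocytes and in follicle cells, acts on floxed alleles of Tbx3, a T-box transcription factor. Single-cell RNA-seq covered unsorted epidermal cells of tamoxifen-treated Tbx3creERT2; R26H2B EGFP mice, a line in which cells that express Tbx3 can be labelled, with 1 library each for non-pregnant mice (NP), gestation day 16 (dpc16) and post partum days 6 (dpp6) and 40 (dpp40). The labels do not say whether the WT bulk mice received tamoxifen, which part of Tbx3 the floxed alleles remove, or whether libraries of 1 group came from separate animals, so the p-values below measure the spread between libraries only.

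Before S phase, the MCM helicase is loaded onto origins by Cdc6 and Cdt1, and it is then activated together with Cdc45 and the GINS complex. Primase and the replicative polymerases copy the DNA behind the helicase, with Pcna as their sliding clamp, while ribonucleotide reductase and thymidylate synthase supply nucleotides and histone chaperones package the new DNA. Many of these genes are transcribed in late G1 under E2F factors, whereas the genes of G2 and mitosis are switched on later in the same cells. In the epidermis, divisions that renew the tissue take place mainly in the basal layer, and cells that leave it for the spinous and granular layers differentiate.

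The bulk values were FPKM (fragments mapped to a gene, scaled to its length and to the mapped fragments of the library), summing to 785636 to 847693 per library; the number of reads behind them is unknown. Tbx3 was at 6.38 to 8.96 FPKM in WT NP and 15.3 to 23.0 in WT dpc16. In Tbx3 cKO dpc16 it was at 1.65 to 4.89, below every WT library. Of the cell type markers, the 10 basal keratinocyte markers (Krt5, Krt14, Itga6 and others) summed to 21829 to 39758 FPKM and the 6 fibroblast markers to 0.234 to 9.86. The spinous markers (Krt1, Krt10 and 6 others) were also high, at 3637 to 15432 FPKM. In bulk samples, fewer cells of a type and less RNA per cell cannot be told apart.

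In WT basal cells, S phase genes were lower at gestation day 16 than in non-pregnant mice. The 44 genes together summed to 1017, 913 and 1067 FPKM in the 3 WT NP libraries (999 ± 78.8, mean ± SD, n = 3) and to 595, 661 and 721 in the WT dpc16 libraries (659 ± 62.8), which is 34.0% lower, and the groups did not overlap. Of the 44 genes, 40 had a negative difference of group means on the log2(FPKM + 1) scale, with a median of -0.57, while the median of all 11497 genes tested was -0.03 and 53.9% of them were negative. In 27 of the 44 (61.4%) every WT dpc16 library was below every WT NP library, against 8.77% of all genes tested, and no member was higher in every library, against 6.82% of all genes. No single member passed limma's moderated test with Benjamini-Hochberg adjustment over all genes, where 0.0261% of the genes tested were called lower and 0.104% higher; 24 members, all lower, had an unadjusted p under 0.05, against 5.33% of all genes tested. Individual changes below are therefore given as values.

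**Figure D1:**
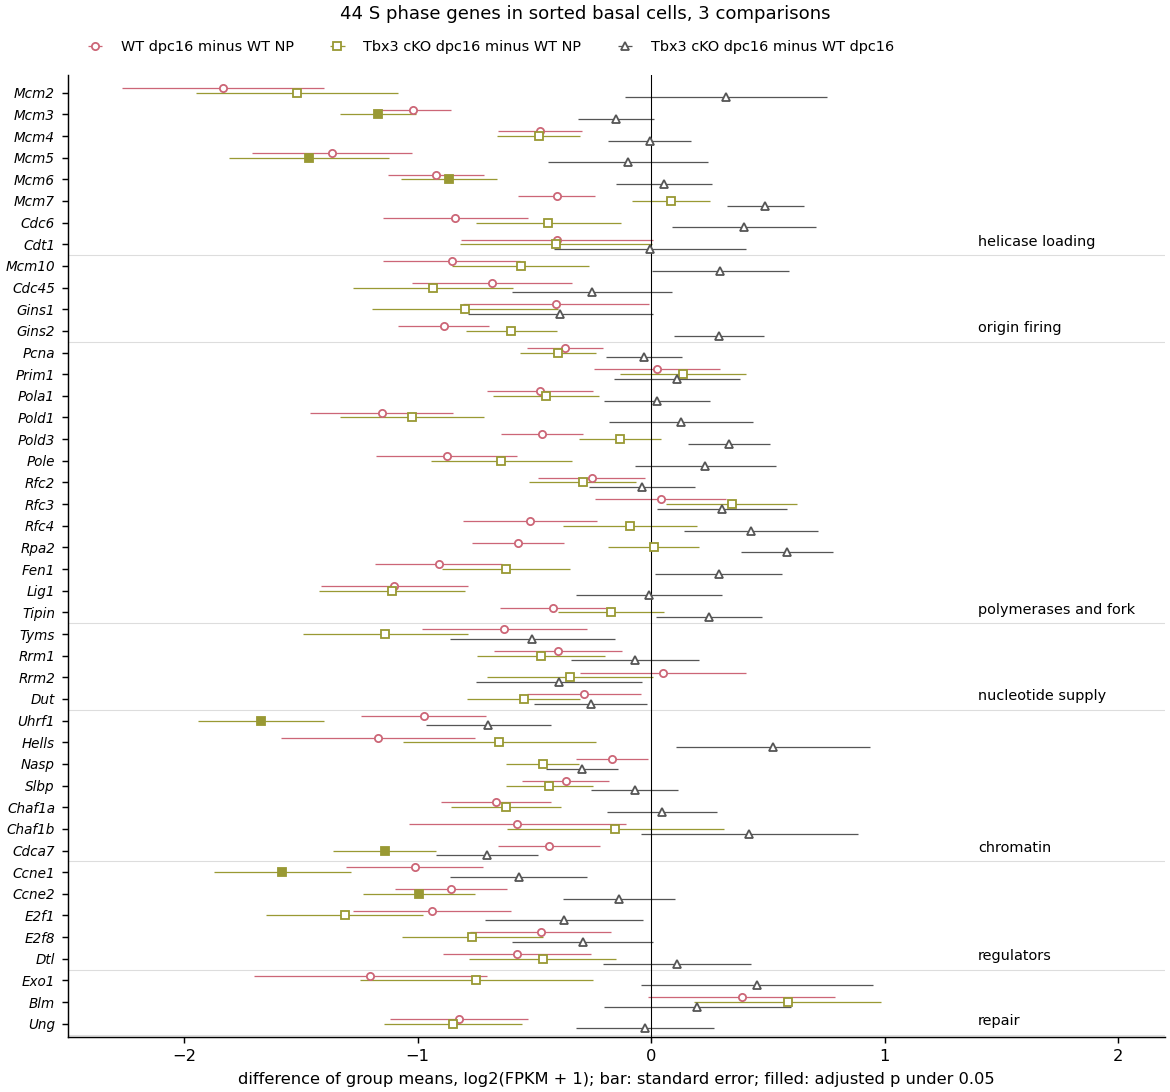
Difference of group means on the log2(FPKM + 1) scale (x axis) for each of the 44 genes (y axis, ordered by role) in the 3 bulk comparisons, with standard errors; filled symbols have an adjusted p under 0.05. In WT dpc16 against WT NP 40 genes lie below 0 and in Tbx3 cKO dpc16 against WT NP 39, while in Tbx3 cKO dpc16 against WT dpc16 22 lie below and 22 above.

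Of the 7 roles, helicase loading had the most negative median. All 8 licensing genes had a negative difference, with a median of -0.88, and 7 were lower in every WT dpc16 library. Their summed level was 167 to 283 FPKM in WT NP and 101 to 119 in WT dpc16. Mcm3, a subunit of the MCM helicase, was at 24.6, 20.4 and 25.3 FPKM in WT NP and at 10.6, 10.3 and 12.2 in WT dpc16. The difference was -1.02 (SE 0.16) on the log2 scale, with an adjusted p of 0.057 by limma, the smallest of any member in this comparison. Its libraries lay close together within each group and far apart between them. Mcm6, another subunit, was at 44.8, 39.6 and 46.3 FPKM in WT NP and at 19.7, 24.3 and 23.8 in WT dpc16 (log2 difference -0.92, limma adjusted p = 0.156). Mcm2 had the widest gap of means, with 35.0, 24.9 and 99.1 FPKM in WT NP against 14.1, 11.2 and 10.2 in WT dpc16 (log2 difference -1.84, limma adjusted p = 0.178). The third WT NP library stood far above the other two, and the difference was -1.26 without it. The exception to the lack of overlap was Cdt1, a helicase loader, at 16.7, 7.53 and 19.1 FPKM in WT NP and 8.80, 14.3 and 7.79 in WT dpc16.

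Among the 4 genes of origin firing the median difference was -0.77, and Gins2 and Mcm10 did not overlap between the groups. Gins2, a subunit of the GINS complex that travels with the helicase, was at 43.8, 27.9 and 26.9 FPKM in WT NP and at 18.2, 16.7 and 15.8 in WT dpc16 (log2 difference -0.89, limma adjusted p = 0.151). Gins1, its partner in the complex, did overlap, with 14.6, 6.91 and 4.90 FPKM in WT NP and 3.34, 7.18 and 7.79 in WT dpc16. The 67.3% of Gins2 exon bases that overlap exons of Gse1 on the opposite strand cannot be assigned with certainty, since the kit marks strand but the strand setting of the quantification is not given in the sources used here. The same holds for Fen1 (84.2%, with Tmem258 and Gm10143) and, among the other members, for Chaf1a, Ccne2, Rfc2, Rfc4, Mcm7 and E2f8, which share 11.2% to 52.5% of their exon bases with other genes.

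Of the 13 genes of the polymerases and the fork, 11 had a negative difference and 8 were lower in every library; the median was -0.47. Pold1, the catalytic subunit of DNA polymerase delta, was at 30.7, 41.5 and 40.4 FPKM in WT NP and at 13.3, 24.3 and 12.9 in WT dpc16 (log2 difference -1.16, limma adjusted p = 0.240). Lig1, the ligase that joins Okazaki fragments, was at 18.4, 16.6 and 22.8 FPKM in WT NP and at 6.12, 7.59 and 12.5 in WT dpc16 (log2 difference -1.10, limma adjusted p = 0.269). Both genes separated the groups completely, as did Fen1, the nuclease that trims the flaps of these fragments, with 10.6 to 15.01 FPKM in WT NP and 3.72 to 8.98 in WT dpc16. Pcna, the sliding clamp, had the highest level of the role and a smaller difference of -0.37, with 88.5, 81.6 and 60.9 FPKM in WT NP and 63.4, 55.4 and 57.5 in WT dpc16, which overlap. The 2 genes without a negative difference were Prim1, the primase, at 0.03, and Rfc3, a subunit of the clamp loader, at 0.04.

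Nucleotide supply differed least. Tyms, thymidylate synthase, was at 42.8, 50.6 and 64.7 FPKM in WT NP and at 22.04, 31.3 and 52.9 in WT dpc16, so that 1 pregnant library lay within the non-pregnant range. Rrm1, the large subunit of ribonucleotide reductase, overlapped as well, with 38.0 to 52.5 FPKM in WT NP and 28.3 to 43.2 in WT dpc16, while Dut, which removes dUTP, was at 45.3 to 46.8 and 31.7 to 42.4 with no overlap. For Rrm2, the small subunit, the difference was 0.05. The median of the 4 genes was -0.34, and none had an unadjusted p under 0.05.

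All 7 chromatin genes had a negative difference (median -0.57), and 3 of them were lower in every library. Uhrf1, which brings the maintenance methyltransferase to newly copied DNA, was at 23.2, 30.6 and 26.6 FPKM in WT NP and at 12.4, 10.0 and 17.9 in WT dpc16 (log2 difference -0.97, limma adjusted p = 0.253). Hells, a chromatin remodeller, was at 18.4, 6.34 and 6.01 FPKM against 5.00, 2.09 and 3.71, and Chaf1a, a subunit of the CAF-1 histone chaperone, was the third. Cdca7, which recruits Hells, was at 56.4, 63.5 and 48.6 FPKM in WT NP and 33.1, 52.1 and 39.8 in WT dpc16, which overlap (log2 difference -0.44). The lowest difference in size was that of the histone chaperone Nasp, at -0.17.

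The 5 regulators also had negative differences throughout, with a median of -0.86 and 4 genes lower in every library. Ccne1, cyclin E1, which drives entry into S phase, was at 6.46, 3.00 and 3.55 FPKM in WT NP and at 1.25, 2.12 and 1.35 in WT dpc16 (log2 difference -1.01, limma adjusted p = 0.285). Ccne2, cyclin E2, was at 5.02, 3.89 and 6.45 FPKM and at 1.94, 2.94 and 2.17 (log2 difference -0.86, limma adjusted p = 0.259). E2f1, an activating E2F factor, and Dtl, which helps to destroy Cdt1 during S phase, were the others, and only E2f8, an E2F repressor, overlapped. Of the 3 repair genes, Exo1 and Ung (uracil-DNA glycosylase, 9.91 to 20.3 FPKM in WT NP and 4.62 to 9.02 in WT dpc16) were lower in every library. The third, the helicase Blm, had a difference of 0.39 and overlapping groups.

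Markers of other cells also differed between these groups. The 9 Langerhans and myeloid markers summed to 61.0 to 75.2 FPKM in WT NP and 34.2 to 45.7 in WT dpc16, with 4 of the 7 tested lower in every library, Lyz2 at or near 0 and Cd207 at 0.292 to 1.44 FPKM. The 5 smooth muscle and pericyte markers summed to 13.3 to 20.2 and 5.20 to 7.13 FPKM, with Acta2 called lower and Myh11 at 0 in all 6 libraries. The 7 T cell markers went the other way, with sums of 304 to 602 FPKM in WT NP and 670 to 854 in WT dpc16, and nearly all of this was Thy1 (301 to 594 and 669 to 853). Cd3g, a subunit of the T cell receptor complex, was at 1.42 to 3.34 FPKM in WT NP and 0.123 to 0.693 in WT dpc16. The sums of basal and of spinous markers overlapped between the groups. Those of the 9 upper follicle markers overlapped as well, with 835, 1065 and 3761 FPKM in WT NP and 620 to 1232 in WT dpc16. Of these 9 markers, 7 had a negative and 2 a positive difference, with a median of -0.68. The part of these markers in the result was not tested.

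**Figure D2:**
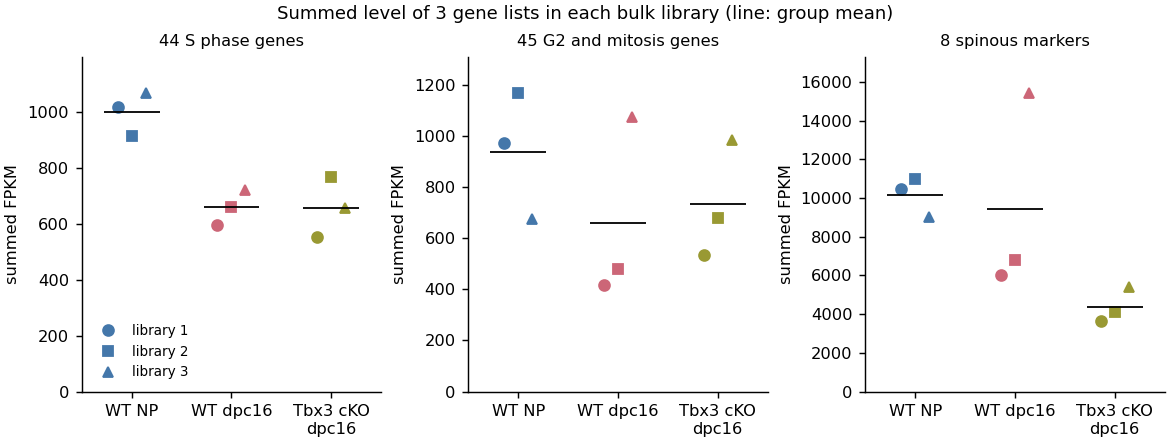
Summed FPKM (y axis) of 3 gene lists in each bulk library (points) by group (x axis), with the group mean as a line. For the 44 S phase genes all 6 pregnant libraries (552 to 765) lie below the WT NP libraries (913 to 1067), while the sums of the 45 genes of G2 and mitosis overlap, with 674 to 1170 in WT NP and 418 to 1076 in WT dpc16.

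Genes of the later cell cycle had a similar median but did not separate the libraries. Of 45 genes of G2 and mitosis, 43 had a negative difference in WT dpc16 against WT NP (median -0.63), but only 2 (4.44%) were lower in every library, and 3 had an unadjusted p under 0.05. The summed level of these genes was 974, 1170 and 674 FPKM in WT NP and 418, 481 and 1076 in WT dpc16. The third WT dpc16 library was thus as high as the non-pregnant ones for G2 and mitosis genes, and it also had the highest spinous sum (15432 FPKM), whereas its S phase sum of 721 remained under the lowest WT NP value. Without it, the median difference of the S phase genes was -0.67. In every remaining library 32 were lower, a count that leaving out a library can raise but not reduce. Kif23, a motor protein of cytokinesis, was at 64.8, 88.8 and 65.5 FPKM in WT NP and 18.2, 27.3 and 54.8 in WT dpc16. Whether the counts of the S phase list and of the G2 and mitosis list differ was not tested.

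Other genes of the replication machinery and its control gave smaller values. Of 48 further replication genes, 46 were tested, and 37 of these had a negative difference with a median of -0.30; no gene passed the limma test and 10 had an unadjusted p under 0.05, all lower. The smallest p-values belonged to Pola2, a subunit of the polymerase that carries primase (6.89 to 9.76 FPKM in WT NP, 3.60 to 5.08 in WT dpc16), and to Orc2, a subunit of the origin recognition complex (10.5 to 15.6 and 6.75 to 7.72). Among 20 tested genes of the E2F factors, the RB family and the cyclins and kinases that control them, 11 were negative and the median was -0.07. The 2 with the smallest p were Ccnd1, cyclin D1, at 65.9, 48.5 and 73.2 FPKM in WT NP against 36.0, 31.6 and 23.3 in WT dpc16, and E2f2, at 4.69 to 12.0 against 2.54 to 4.72. Both were lower in every WT dpc16 library.

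Between the pregnant groups, with and without floxed Tbx3, the S phase genes as a whole did not separate. They summed to 552, 765 and 655 FPKM in Tbx3 cKO dpc16 (657 ± 107), a range that includes all WT dpc16 values. Of the 44 genes, 22 had a negative and 22 a positive difference from WT dpc16 (49.1% of all genes tested were negative), with a median of 0.01. No member passed the limma test, in which 0.922% of all genes were called lower and 1.23% higher; 2 members were lower and 2 higher at an unadjusted p under 0.05, against 8.24% and 9.19% of all genes tested, and no alternative analysis called a member. In 3 members every Tbx3 cKO library was below every WT dpc16 library and in 4 above, against 12.9% and 13.3% of all genes tested. The smallest p belonged to Cdca7, at 19.3, 25.2 and 31.1 FPKM in Tbx3 cKO dpc16 and 33.1, 52.1 and 39.8 in WT dpc16 (log2 difference -0.70, limma adjusted p = 0.130). The others without overlap were Nasp and Ccne1 on the lower side and Mcm7, Rpa2 (a subunit of the complex that coats single-stranded DNA), Pold3 and Gins2 on the higher side, with differences of 0.29 to 0.58. With 3 libraries a group, the range of the list's median when single libraries were left out was -0.09 to 0.15. Of the related genes, Cdkn1b, an inhibitor of the kinases that start S phase, was at 60.3, 45.9 and 51.7 FPKM in Tbx3 cKO dpc16 and 28.6, 30.1 and 34.8 in WT dpc16 (limma adjusted p = 0.056). Marker sums separated these groups where the S phase sum did not. In Tbx3 cKO dpc16 the basal sum was lower (21829 to 29587 against 32480 to 36015 FPKM), as was the spinous sum (3637 to 5420 against 6028 to 15432). The T cell sum was lower too (121 to 643 against 670 to 854), but it was nearly all Thy1 in the WT groups. The smooth muscle and pericyte sum was higher (22.3 to 45.7 against 5.20 to 7.13). Sums follow the most abundant genes. Of the 10 basal markers, 5 had a negative and 5 a positive difference, with a median of -0.015. Of the 3 smooth muscle and pericyte markers tested, 1 was negative and 2 positive (-0.40 to 2.54).

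Against WT NP, the Tbx3 cKO dpc16 libraries gave the only calls among the members. This comparison uses the same WT NP libraries as the one above, and its values stand beside those and do not add to them. The summed level was 34.2% lower than in WT NP, 39 of the 44 genes had a negative difference, against 51.6% of all genes tested, and the median was -0.58. In 24 genes (54.5%) every Tbx3 cKO library was below every WT NP library, against 14.2% of all genes tested. By limma, 7 members fell (adjusted p under 0.05) and none rose, where 2.91% of all genes were called lower and 2.76% higher. They were the helicase subunits Mcm3, Mcm5 and Mcm6, the chromatin genes Uhrf1 and Cdca7, and the cyclins Ccne1 and Ccne2. Leaving out any 1 of the 9 libraries gave 2 to 5 calls: 2 without the first Tbx3 cKO library, 4 without the third Tbx3 cKO library, the second WT dpc16 library or any 1 WT NP library, and 5 otherwise. With the 6 compared libraries alone there were 3 calls. Mcm3 and Uhrf1 were called in all 17 alternative analyses, Ccne1 in 14 of 16, Cdca7 in 14 of 17, Mcm5 in 8 and Mcm6 in 5 of 17, and Ccne2 in 4 of 16, and no difference changed sign.

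The called genes differed in how far the WT dpc16 libraries had gone the same way. Mcm3 was at 9.10, 9.69 and 10.7 FPKM in Tbx3 cKO dpc16, close to WT dpc16 (10.3 to 12.2), and had fallen from 20.4 to 25.3 in WT NP (log2 difference -1.17, SE 0.16, limma adjusted p = 0.00693). Mcm5, a further helicase subunit, was at 4.33, 10.8 and 7.17 FPKM, against 4.61, 9.37 and 9.86 in WT dpc16 and 22.7, 16.1 and 25.7 in WT NP (log2 difference from WT NP -1.46, limma adjusted p = 0.0386). For Mcm6 the values were 18.5, 32.2 and 21.5 FPKM, with the second library above all of WT dpc16 (log2 difference from WT NP -0.86, limma adjusted p = 0.0409). For these 3 genes the pregnant groups overlapped, and both lay below WT NP.

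Uhrf1 was at 5.07, 8.67 and 10.1 FPKM in Tbx3 cKO dpc16, its lowest group (log2 difference from WT NP -1.67, SE 0.27, limma adjusted p = 0.0122), although the highest of these libraries was just above the lowest of WT dpc16 (10.0). Cdca7, with the values given above, fell by 1.142 on the log2 scale (limma adjusted p = 0.0214) and was below both other groups in every library. Ccne1 was at 0.730, 0.755 and 0.670 FPKM, below every WT dpc16 library (1.25 to 2.12) and every WT NP library (3.00 to 6.46), with a log2 difference from WT NP of -1.58 (limma adjusted p = 0.0185). At such levels the added 1 FPKM shrinks the difference, and the plain ratio of the means was 0.166. Ccne2 was at 1.76, 2.24 and 2.10 FPKM, overlapping WT dpc16 (1.94 to 2.94), with a log2 difference from WT NP of -0.99 (limma adjusted p = 0.0436).

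**Figure D3:**
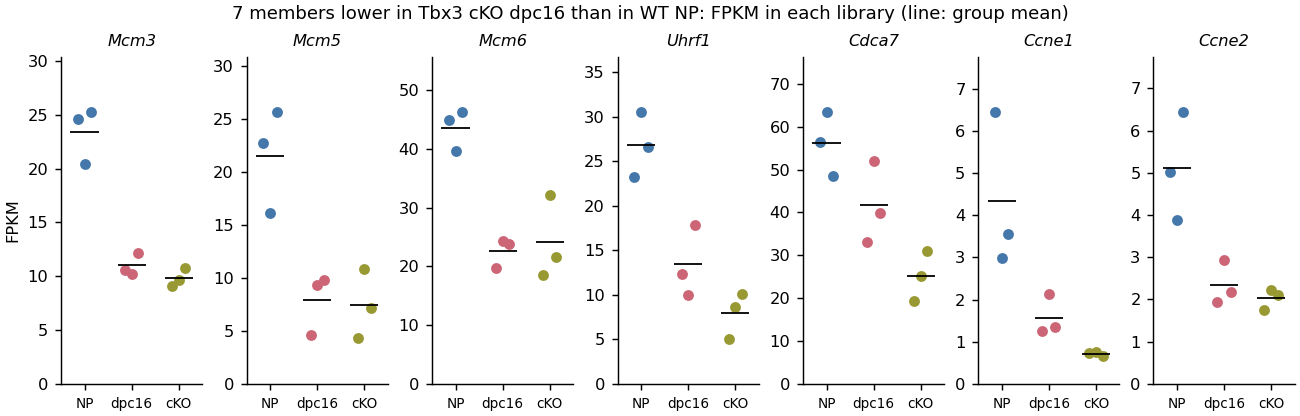
FPKM (y axes, each from 0) of the 7 genes called lower in Tbx3 cKO dpc16 than in WT NP, in each library (points) of the 3 bulk groups (x axes), with group means as lines. For Mcm3 both pregnant groups lie at 9.10 to 12.2 against 20.4 to 25.3 in WT NP, while Cdca7 and Ccne1 are lowest in every Tbx3 cKO library.

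Differentiation markers moved with this comparison. All 8 spinous markers had a negative difference in Tbx3 cKO dpc16 against WT NP, and Krt1, Krt10 and Dmkn were called lower. The list summed to 3637 to 5420 FPKM in Tbx3 cKO dpc16 and 9018 to 11004 in WT NP, with none of the 8 at 0. The basal marker sum was 21829 to 29587 against 30348 to 39758 FPKM, with Krt14 called lower and Dst called higher. The Langerhans and myeloid sums overlapped (34.5 to 98.2 against 61.0 to 75.2). Smooth muscle and pericyte markers went both ways, with Acta2 called lower, Mcam called higher and sums of 22.3 to 45.7 against 13.3 to 20.2 FPKM. The part of these markers in the S phase values was not tested.

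A few related genes were called in the same comparison. Of the 46 further replication genes tested, 2 fell and 1 rose, which is near the share of all genes called (2.91% lower and 2.76% higher). Asf1b, a histone chaperone, was at 1.06, 1.91 and 2.58 FPKM in Tbx3 cKO dpc16 against 8.45, 12.4 and 7.47 in WT NP (limma adjusted p = 0.0261), and Timeless, of the fork protection complex, was at 2.23 to 3.42 against 4.52 to 13.05 (limma adjusted p = 0.0429). Rnaseh2a, the catalytic subunit of an RNase that removes ribonucleotides from DNA, rose, from 70.2 to 83.2 FPKM in WT NP to 144 to 209 (limma adjusted p = 0.0170). Of the 20 genes of E2F, RB and cyclin control, E2f2 (1.002 to 1.51 against 4.69 to 12.0 FPKM) and Cdk4 (217 to 268 against 382 to 391) fell, and Tfdp2, a dimer partner of E2F factors, rose (22.8 to 44.02 against 5.75 to 14.9). Of the 45 genes of G2 and mitosis none was called. At an unadjusted p under 0.05 by limma, 5 of them (11.1%) were lower, against 13% of all genes tested. Bub1b, a spindle checkpoint kinase, and Kif23 were among these 5.

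E2F factors are known to drive many replication genes, and the members' promoters were searched for E2F-like octamers. RefSeq windows of 300 bases, from 250 before to 50 after the transcription start on GRCm38.p6, were at hand for 36 of the 44 genes (41 windows). Searched on both strands for TTTCCCGC, TTTCGCGC, TTTGCCGC and TTTGGCGC, 15 of the 41 windows (36.6%) held at least 1 match, against 2.26% of 32851 windows of all genes, 28.3% of those of the further replication genes and 4.88% of those of the G2 and mitosis genes. The cell cycle homology motif TTTGAA, known from genes of the later cycle, was present in 12.2% of member windows, 70.7% of G2 and mitosis windows and 17.9% of all windows. The box CCAAT was present in 56.1%, 80.5% and 37.4%. GC content differed as well, with medians of 63.0% for the members and 52.7% for all windows, and its part in these shares was not tested. A match is a run of letters and not a measured binding site.

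The stretches around the matches that lie before the start are shown for those of the 7 called genes that have one, because these are the members whose levels changed by the test. They are written in the direction of the gene, with the matching bases in capitals. Mcm5 (chr8:75109334-75109385, + strand) has overlapping matches to TTTCGCGC and, on the opposite strand, TTTGGCGC, which begin 153 bases before the start. Mcm6 (- strand) has the mirror arrangement 110 bases before its start (chr1:128359786-128359837) and a further TTTGGCGC 47 bases before it (chr1:128359723-128359774). Uhrf1 (chr17:56304106-56304157, + strand) has its match 185 bases before a start at 56304313, and the window of another start, at 56303337, has none. In GRCm38 coordinates the Uhrf1 gene begins at 56303321, so this match lies within it. Cdca7 (chr2:72476126-72476177, + strand) has TTTCCCGC on the opposite strand 71 bases before its start.
Mcm5: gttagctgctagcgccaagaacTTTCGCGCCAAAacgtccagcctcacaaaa
Mcm6, distal: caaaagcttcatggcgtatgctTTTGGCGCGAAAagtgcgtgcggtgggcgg
Mcm6, proximal: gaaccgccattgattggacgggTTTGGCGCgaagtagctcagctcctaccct
Uhrf1: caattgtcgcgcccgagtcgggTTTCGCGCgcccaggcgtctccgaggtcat
Cdca7: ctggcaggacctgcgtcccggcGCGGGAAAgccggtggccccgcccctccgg
The distal sites of Mcm5 and Mcm6 share the 12 bases of a TTTCGCGC and a TTTGGCGC laid over each other in opposite directions. Mcm3 has 2 matches, both after its start, and Ccne1 has none in this window. For Ccne2 no window was at hand, so it was not searched. In GRCm38 coordinates the Mcm3 gene lies at chr1:20802968-20820312, - strand, Ccne1 at chr7:38097984-38107534, - strand, and Ccne2 at chr4:11191351-11204779, + strand.

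The single-cell matrices held 6491 cells in NP, 12853 in dpc16, 9031 in dpp6 and 8552 in dpp40 after filtering, from 40450455 to 74804602 UMIs (unique molecules) per library, where the study states 6485, 12846, 9029 and 8552 cells. Pairs of libraries shared 75 to 154 barcodes. Cells were clustered without the 44 genes. Clusters 13 and 18 were called cycling from 16 markers of G2 and mitosis (Mki67, Top2a, Ccnb1 and others), which were at 4623 counts per 1000000 UMIs (CPM) there and at 50.3 in the basal-like clusters 0, 5, 6 and 7. With 1 library per state no test between states is possible, and the intervals given are exact, at 95%, and cover counting error only.

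**Figure D4:**
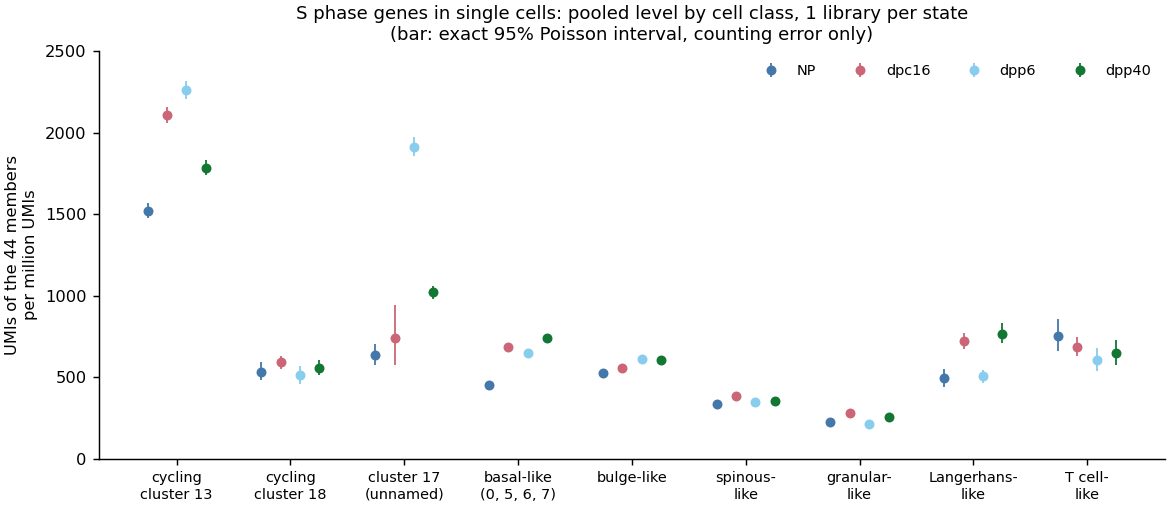
UMIs of the 44 genes per 1000000 UMIs (y axis) in classes of cells (x axis) of the 4 single-cell libraries, with exact 95% Poisson intervals. Cycling cluster 13 has the highest level in each library (1522 to 2260), and the granular-like cells the lowest (210 to 279).

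UMIs of the S phase genes were found in cycling and in other clusters. Of the 142368 UMIs of the 44 genes, the cycling clusters held 18.1% with 5.91% of the cells and 6.94% of all UMIs, and the basal-like clusters held 23.3% with 27.9% of the cells. The level was 1600 CPM in cycling cells and 665 in basal-like cells, a ratio of 2.40 (2.37 to 2.44), while the 16 markers that defined the cycling clusters had a median ratio of 96.0 and a lowest of 55.7. In CPM the level was lower in differentiated cells, at 313 to 429 in the 3 spinous-like clusters and 244 in granular-like cells, where the basal-like level was 2.73 times higher (2.62 to 2.83). With every cell thinned to 3000 UMIs, 3 or more UMIs of the 44 genes were found in 55.2% of cycling cells (63 shallower cells left out), 24.0% of basal-like cells (547 left out) and 5.49% of granular-like cells; without thinning the shares were 77.8%, 41.7% and 54.3%, at median depths of 6509, 4433 and 13888 UMIs.

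Counted per cell and not per UMI, the order was different. Cycling cells held 11.8 UMIs of the 44 genes per cell, basal-like cells 3.22 (3.19 to 3.26), spinous-like cells 3.51 and granular-like cells 3.75 (3.62 to 3.89), so the lower CPM of the differentiated classes went with their larger total of UMIs. Droplets can also take up free RNA from other cells, and its share was not estimated. The cells that should lack these transcripts were the 17 of cluster 24, led by haemoglobin genes such as Hbb-bs, which had a median of 5973 UMIs. They held 4 UMIs of the 44 genes, or 0.235 per cell (0.0641 to 0.602), and none of the 17 had 3 or more after thinning (0%, with an upper limit of 19.5%), against 24.0% of basal-like cells. The cycling markers went the other way, with 0.882 UMIs per cell in cluster 24 and 0.243 in basal-like cells. Of these 17 cells, 8 were in NP, 7 in dpc16, 2 in dpp6 and 0 in dpp40, so they say little about single libraries. The part of free RNA in the levels outside the cycling clusters, and in the differences between states there, was not tested.

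The cycling clusters differed from each other. Cluster 13, led by Ube2c, Top2a and Cdk1, was at 1918 CPM of S phase genes, and cluster 18, led by Cenpa and Cdc20, was at 557, below the basal-like clusters. The cycling markers were at 5386 CPM in cluster 13 and 2121 in cluster 18. All 16 were detected in both, but also in the basal-like clusters 0, 5, 6 and 7. Cluster 17, left unnamed and led by Fam13a, Cldn10 and Mfap2, was the other cluster with a high level, of 1913 in dpp6 (304 cells) and 1020 in dpp40 (323 cells), with cycling markers at 978 and 292 CPM. Counting it as cycling moved the ratio of cycling to basal-like cells from 2.40 to 2.32.

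Single members ranged widely in how far they marked cycling cells. Of the 43 with at least 50 UMIs in the cycling clusters, 42 had a ratio to basal-like cells whose lower limit was above 1, the median ratio was 2.51, 28 were at 2 or more and 8 at 5 or more. The highest ratios were those of Mcm10, an origin firing factor (19.5, 10.8 to 38.3), E2f8 (18.8, 14.0 to 25.8), Rrm2 (13.1, with a lower limit of 11.4), Exo1 (7.23) and Uhrf1 (6.74). The lowest were those of Ung (1.08, 0.91 to 1.28), Mcm6 (1.22), Cdca7 (1.28), Rfc3 (1.31) and Nasp (1.35), whose CPM in basal-like cells came closest to that in cycling cells. Among the most abundant members in cycling cells, in CPM, were Dut (182, against 72.3 in basal-like cells), Slbp, which binds histone mRNA (113 against 47.4), Tyms (109 against 23.2) and Rrm1 (92.6 against 21.6). Nasp (75.0), Rrm2 (68.6), Tipin (64.1) and Lig1 (59.5) followed.

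**Figure D5:**
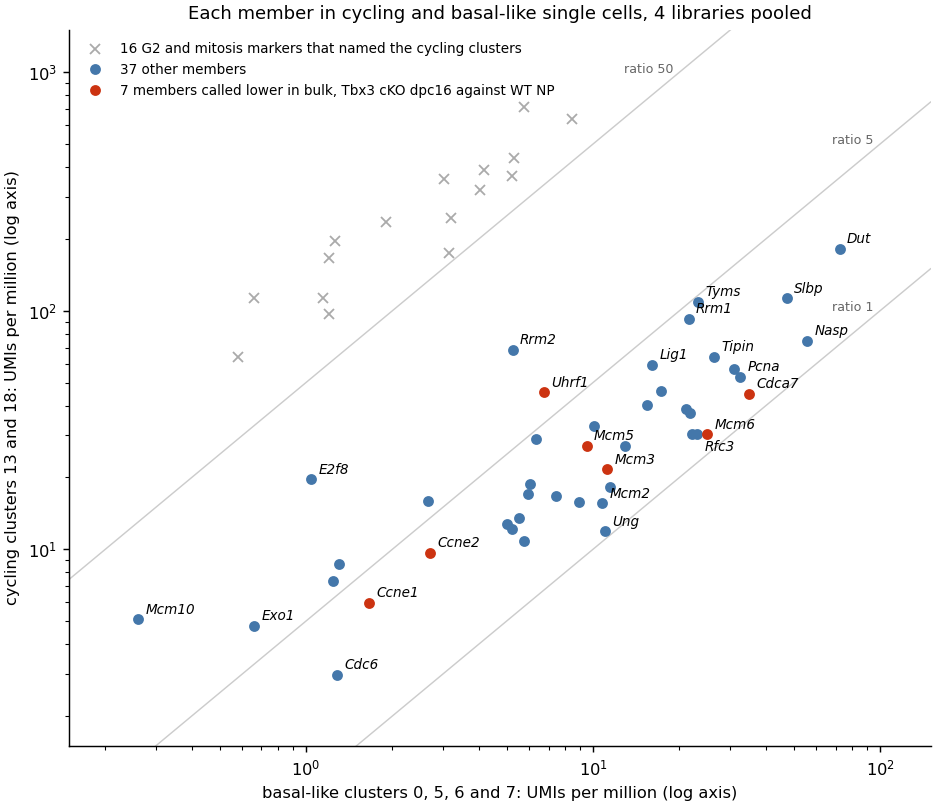
CPM of each of the 44 genes in cycling clusters 13 and 18 (y axis, log scale) against the basal-like clusters 0, 5, 6 and 7 (x axis, log scale), 4 libraries pooled. Mcm10, E2f8 and Rrm2 lie farthest above the line of equal levels (ratios 19.5, 18.8 and 13.1), and Ung lies closest to it (1.08).

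The subunits of 1 complex were not alike in this respect. Within the helicase, Mcm5 had a ratio of 2.86 (27.2 CPM in cycling and 9.50 in basal-like cells), Mcm3 of 1.93 (21.7 and 11.2) and Mcm6 of 1.22 (30.4 and 25.0). Within ribonucleotide reductase, Rrm2 had 13.1 and Rrm1 4.30. Rrm2 was 1 of 4 members with a lower level in basal-like (5.25) than in granular-like cells (17.4, 15.1 to 19.9, from 210 UMIs), with Cdc6, Cdc45 and E2f8 as the others; granular-like cells were the deepest, and their cycling markers were at 47.5 CPM, near the basal-like 50.3.

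The lower S phase level of the bulk pregnant libraries was not seen in the single-cell libraries, when cells were pooled. In cycling plus basal-like cells the level was 1.10 times that of NP in dpc16 (1.07 to 1.13), 1.26 in dpp6 and 1.22 in dpp40. In basal-like cells alone it was 453 CPM in NP, 684 in dpc16, 646 in dpp6 and 742 in dpp40, so that NP was the lowest, with a dpc16 to NP ratio of 1.51 (1.45 to 1.58). Cells of cycling cluster 13 were at 1522, 2108, 2260 and 1785 CPM, again with NP the lowest. Cluster 18 was at 533, 590, 511 and 559, and its dpc16 to NP ratio of 1.11 had an interval that held 1 (0.98 to 1.25). Other classes were also lower in NP than in dpc16. The levels were 523 and 557 CPM in bulge-like, 336 and 385 in spinous-like, 224 and 279 in granular-like and 494 and 719 in Langerhans-like cells. All cells together were at 501 and 608, while T cell-like cells went the other way (753 and 685). The lower NP level was thus not particular to basal-like cells. Thinned to 3000 UMIs, 14.5% of NP basal-like cells (65 shallower cells left out) and 25.5% of dpc16 basal-like cells (408 left out) had 3 or more UMIs of the 44 genes; unthinned, the shares were 30.8% and 39.3%.

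Different clusters made up the basal-like class in each state. In NP, cluster 5 held 51.3% of it, cluster 0 28.9%, cluster 6 17.1% and cluster 7 2.64%; in dpc16, cluster 7 held 40.3%, cluster 0 38.8%, cluster 6 18.1% and cluster 5 2.86%. None of the 4 clusters has a basal marker among its 10 leading genes, which are relative to all other cells, and cluster 7 has the T cell marker Thy1 there, so the clusters were also compared by number. The 10 basal markers together were at 28082 to 29256 CPM in clusters 0, 5 and 6 and at 32671 in cluster 7, the highest of the 4. Within each, dpc16 was above NP, with ratios of 1.48 (1.37 to 1.60) in cluster 0, 1.33 (1.18 to 1.503) in cluster 5, 1.52 (1.38 to 1.67) in cluster 6 and 1.99 (1.503 to 2.71) in cluster 7, which had 32 NP cells. Without cluster 7, the ratio was 1.45 in basal-like cells and 1.17 in cycling plus basal-like cells. Thy1, at 222 CPM in the dpc16 cells of cluster 7, was not accompanied by the other T cell markers, which were at 15.3 together.

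The share of cycling cells among cycling plus basal-like cells went the other way. Cycling clusters made up 28.0% of cycling plus basal-like cells in NP (25.9% to 30.2%), 12.8% in dpc16 (11.9% to 13.6%), 19.3% in dpp6 and 19.5% in dpp40. Without cluster 7 the shares were 28.6%, 19.7%, 20.05% and 19.6%. Of all cells, they were 7.27% in NP, 5.77% in dpc16, 4.71% in dpp6 and 6.36% in dpp40. These shares depended on what was called cycling. With cycling cells defined by UMIs of 2 or more of the 16 markers in the cell, they were 11.3%, 8.64%, 9.09% and 11.8% of all cells, and with cluster 17 counted as cycling 9.21%, 5.90%, 8.07% and 10.1%, so that dpp40 was above NP in both. Of cycling plus basal-like cells, the shares were then 38.5%, 18.3%, 32.2% and 32.04%, and 33.02%, 13.01%, 29.1% and 27.8%, with NP the highest and dpc16 the lowest in both. Each share comes from 1 unsorted library and can move with how many cells of the other types were captured.

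Member by member, bulk and single-cell values also parted. Of the 40 genes with a negative bulk difference between WT dpc16 and WT NP, 31 had a dpc16 to NP ratio above 1 in cycling plus basal-like cells and 9 below. Of the 27 that were lower in every bulk library, 11 had an interval above 1, 15 an interval that held 1, and 1 an interval below 1. Ccne1 was at 0.9 CPM in NP and 3.3 in dpc16, a ratio of 3.74 (1.82 to 8.94), against a bulk log2 difference of -1.01. Mcm3 was at 7.1 and 12.9 (1.82, 1.39 to 2.41), and Mcm6 at 15.4 and 24.3 (1.58, 1.31 to 1.90). Ccne2 had a ratio of 1.67, Cdca7 of 1.15, Mcm5 of 1.19 (0.94 to 1.51) and Uhrf1 of 1.02 (0.84 to 1.25). None of the 7 genes called in bulk was thus lower in the dpc16 single-cell library. Those calls were for Tbx3 cKO dpc16 against WT NP, and no single-cell library came from Tbx3 cKO mice. The 5 members with an interval below 1 were E2f8 (0.42, 0.31 to 0.56), Rrm1 (0.66), Rfc3 (0.85), Tyms (0.86) and Mcm7 (0.86). Levels themselves ranked alike, with a Spearman correlation across the 44 genes of 0.87 between mean bulk FPKM and single-cell CPM, whereas the bulk difference and the single-cell ratio had a correlation of -0.32; both describe genes that share libraries and are not independent points. The bulk and single-cell mice differed in genotype, the single cells were not sorted on CD49f and CD34, and the 3′ counts and FPKM rest on different parts of the transcript, so these differences cannot be told apart from the state.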

How the data were processed

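Bulk libraries (TruSeq Stranded mRNA, RNA integrity number above 7) and Chromium 3′ libraries were sequenced, per the labels' protocols. The authors deposited an FPKM table and UMI counts. The submitters' processing notes list TopHat2, Cufflinks 2.2.1 and Cuffdiff beside Cell Ranger 2.2.0, cutadapt 1.14 and the build mm10, without their roles. Of the table's column headings, those of WT NP and Tbx3 cKO name their group, and the other WT columns were taken as WT dpc16; 0 sample columns were left unused. The number of reads behind FPKM is unknown.

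Values were tested as log2(FPKM + 1) for the 11497 genes averaging 1 FPKM or more across all 9 libraries, which include all 44 members, with limma 3.58.1 in R 4.3.3 (a mean per group over all 9 libraries, trended moderation, two-sided, Benjamini-Hochberg over all genes, called at 0.05). The script was tested on simulated data. No pairing of libraries was used. Cells with 200 or more genes and no more than 10% of UMIs from mitochondria were clustered without the members (scanpy 1.11.5, 2000 variable genes, 30 components, Leiden resolution 1). Scrublet called 0 doublets, so it had not worked and none were removed. Clusters with at least 1000 cycling-marker CPM (UMI counts per 1000000) were called cycling, and those with at least 25000 basal-marker CPM and at most 2500 follicle-marker CPM basal-like; these limits were set after seeing the clusters. Intervals are exact Poisson, binomial or conditional ones at 95%.

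The members and lists were chosen with earlier results of these data known. Named genes are the called members, up to 3 of each role with the smallest p in WT dpc16 against WT NP among those of at least 5 FPKM, up to 4 called genes or otherwise the 2 with the smallest p of each related list, and in single cells the 8 highest levels and the 5 highest and 5 lowest ratios; other members were named after their values were seen. Alternatives changed the pseudocount, the filter, the scaling, the fit, the libraries, the clustering and the definition of cycling cells. Promoter windows are from RefSeq (GRCm38.p6), exon overlaps from GENCODE.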

Additional observations from a re-analysis of the deposited data

How the results depend on the processing

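No alternative called a member in WT dpc16 against WT NP or in Tbx3 cKO dpc16 against WT dpc16, and no result changed sign against a call. Of the comparisons' summary values, 119 stayed within the limits set and 16 moved. The 7 calls in Tbx3 cKO dpc16 against WT NP became 4 without a filter on low values (more genes tested) and 3 with the 6 compared libraries alone (fewer samples), and 2 to 5 when single libraries were left out. The median differences then ranged from -0.76 (without the second WT NP library) to -0.50 in WT dpc16 against WT NP, from -0.09 to 0.15 in Tbx3 cKO dpc16 against WT dpc16, and from -0.72 to -0.42 in Tbx3 cKO dpc16 against WT NP. With single libraries left out, members lower in every library numbered 28 to 32 and 24 to 31, against 27 and 24. Leaving out a library cannot lower these counts, so they do not test stability, although they are among the summary values counted above. With the column number as a replicate block, calls numbered 0, 0 and 8 and the medians were unchanged; the deviations of same-numbered libraries correlated at -0.21 to -0.07 between WT NP and WT dpc16, at -0.07 to 0.04 between WT NP and Tbx3 cKO dpc16, and at 0.31, 0.07 and 0.36 between WT dpc16 and Tbx3 cKO dpc16, where differently numbered ones gave -0.34 to 0.09. In the last pair of groups the libraries numbered 1 and 3 thus deviated together and those numbered 2 did not, a hint from the data alone, and the numbers were not taken as pairs. The ratio of cycling to basal-like cells was 2.54 at Leiden resolution 0.5, 2.03 with cycling cells defined by 2 or more markers in the cell, 2.45 without cluster 7 and 2.32 with cluster 17 as cycling. The dpc16 to NP ratio in cycling plus basal-like cells was 1.16 with cells so defined and 1.17 without cluster 7, and that in basal-like cells alone 1.45 without cluster 7. The cause of these shifts was not tested. Leaving out cluster 7 and moving cluster 17 were chosen after seeing the data, as was leaving out libraries for the count of members lower in every library. Of the values for single genes and cell classes, 282 held, 38 lost their call and 57 moved. FPKM hide the depth behind each bulk value, and rare members such as Cdc6 (48 UMIs in cycling clusters) allow no precise ratio.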

Other observations

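Cluster 17 was the only cluster outside the cycling ones with more than 1000 S phase CPM over all libraries, at 1362 (1330 to 1394) in 770 cells. It had 126 cells in NP (635 CPM), 17 in dpc16 (742), 304 in dpp6 (1913) and 323 in dpp40 (1020), which is 1.94%, 0.132%, 3.37% and 3.78% of the cells of each library. Its basal markers were at 7089 CPM, against 29148 in the basal-like clusters.

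Langerhans-like and T cell-like cells had S phase levels of 625 (600 to 650) and 668 (633 to 704) CPM, close to the 665 (658 to 673) of the basal-like cells, and cycling markers at 272 and 487 CPM. Basal keratinocyte markers were also present in these immune classes, at 10775 and 14125 CPM, and no doublets were removed. The part of keratinocyte RNA in their S phase levels was not tested. Bulge-like cells, which the CD34- gate of the bulk sort would leave out, were at 586 (575 to 597), with cycling markers at 58.2.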
